A study of Mus musculus with 12 samples.

Results

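The genes described here are 40 genes of DNA replication and cell division, set by name: 18 that copy DNA, 7 that control entry into S phase and 15 that act in mitosis. They were followed by ATAC-seq of bone marrow. The mice were of the inbred NZO/HILtJ strain, known for obesity and diabetes. The assay cuts and tags open chromatin with a transposase, so reads over a region measure its accessibility. The study held 12 libraries in 4 groups of 3, from female and male mice aged 3 months and female and male mice aged 18 months, with no treatment or altered allele named in the labels. The question was how accessibility at these genes differed between the ages, with sex as a covariate. Each gene was represented by its gene-end peak: of the consensus peaks with a centre within 1 kb of either end of the RefSeq gene, the one with the highest mean count. Such a peak existed for 37 of the 40 genes, and all 37 passed the filter on low counts. Cdt1, Rrm1 and Ccna2 had none, and 14 genes had 2 or more to choose from. The libraries held 7668099 to 12756647 counts in peaks, at which 3 counts correspond to a CPM of 0.235 to 0.391. Over all genes, 12171 of 21887 that code for protein had such a peak, and neighbouring genes often shared one.

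Before a cell divides, the MCM helicase is loaded onto replication origins by Cdc6 and Cdt1 and switched on with Cdc45 and the GINS complex, and polymerases, the Pcna clamp and the enzymes of nucleotide supply then copy the DNA. E2F factors and cyclin E with Cdk2 drive the step from G1 into S phase, and Cdk1 with B-type cyclins, Plk1 and the Aurora kinases drives mitosis. Promoters of replication genes are known for E2F sites. Those of mitotic genes are known for the CHR element, bound by the MuvB complex, together with CCAAT boxes, bound by NF-Y. Bone marrow is among the most proliferative tissues of an adult mouse, with much of the division in maturing red cell and granulocyte precursors.

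The promoters of both classes are shown first, because most of the peaks lay over them: of the 29 genes with a peak and a RefSeq start in the table, 28 had a peak that spanned a start. Each line gives 160 bases before the start and 20 after it (RefSeq, GRCm38.p6), 5′ to 3′, with every motif match in capitals. The matches searched on both strands were TTTGGCGC, TTTCGCGC, TTCCCGCC or TTCCCGCG for E2F, CCAAT for the NF-Y box, and TTTGAA or TTCGAA for the CHR element. The first 4 are mitotic genes lower at 18 months, and the last 4 are replication genes, of which only Mcm5 was not called. They lie at chr9:70421535-70421714 (Ccnb2, minus strand), chr10:69352893-69353072 (Cdk1, minus), chr4:118437324-118437503 (Cdc20, minus), chr13:100786467-100786646 (Ccnb1, minus), chr1:128359686-128359865 (Mcm6, minus), chr8:75109349-75109528 (Mcm5, plus), chr10:128015055-128015234 (Prim1, plus) and chr12:24708094-24708273 (Rrm2, plus).
Ccnb2: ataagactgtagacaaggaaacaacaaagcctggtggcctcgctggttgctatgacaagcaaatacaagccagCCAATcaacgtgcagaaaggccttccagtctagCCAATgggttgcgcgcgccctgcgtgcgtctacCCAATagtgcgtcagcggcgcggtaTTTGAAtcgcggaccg
Cdk1: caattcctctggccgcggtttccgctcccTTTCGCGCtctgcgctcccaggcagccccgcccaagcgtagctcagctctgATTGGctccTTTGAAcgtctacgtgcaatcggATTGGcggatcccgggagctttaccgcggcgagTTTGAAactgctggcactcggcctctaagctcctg
Cdc20: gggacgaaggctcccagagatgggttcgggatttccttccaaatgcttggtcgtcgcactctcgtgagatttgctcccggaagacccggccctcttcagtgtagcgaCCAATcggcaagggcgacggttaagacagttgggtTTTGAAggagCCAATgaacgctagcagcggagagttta
Ccnb1: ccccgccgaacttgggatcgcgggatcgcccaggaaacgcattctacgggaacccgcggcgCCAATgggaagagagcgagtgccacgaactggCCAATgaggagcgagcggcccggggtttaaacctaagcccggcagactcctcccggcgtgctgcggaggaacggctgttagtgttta
Mcm6: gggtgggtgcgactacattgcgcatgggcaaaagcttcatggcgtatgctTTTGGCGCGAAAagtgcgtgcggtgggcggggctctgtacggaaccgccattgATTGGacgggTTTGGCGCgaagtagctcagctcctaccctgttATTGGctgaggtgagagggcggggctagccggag
Mcm5: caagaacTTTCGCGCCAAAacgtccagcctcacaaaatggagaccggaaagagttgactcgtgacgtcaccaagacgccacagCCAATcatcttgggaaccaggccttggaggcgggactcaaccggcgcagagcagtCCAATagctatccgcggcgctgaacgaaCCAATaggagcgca
Prim1: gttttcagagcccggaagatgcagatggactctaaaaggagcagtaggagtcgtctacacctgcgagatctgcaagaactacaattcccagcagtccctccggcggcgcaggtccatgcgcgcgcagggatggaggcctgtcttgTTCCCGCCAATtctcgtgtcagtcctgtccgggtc
Rrm2: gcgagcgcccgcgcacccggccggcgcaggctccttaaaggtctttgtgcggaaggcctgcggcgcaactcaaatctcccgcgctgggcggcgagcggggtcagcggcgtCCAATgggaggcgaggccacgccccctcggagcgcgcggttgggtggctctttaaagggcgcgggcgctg
On the opposite strand CCAAT reads ATTGG. Ccnb2, Cdk1 and Cdc20 each held CCAAT boxes and a CHR match that began 5, 15 and 18 bases from the start, while Ccnb1 held 2 CCAAT boxes and no CHR match in the whole window. Mcm6 held 3 E2F matches, of which 2 overlap in 1 run, Mcm5 held 2 that overlap, and in Prim1 the E2F match overlaps the CCAAT box. Rrm2 held a CCAAT box and no E2F match of these letters.

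Over the whole window of 300 bases, the CHR letters were found in 10 of 12 promoters of mitotic genes, in 4 of 15 of replication genes and in 19.2% of all 32851 promoters in the table. E2F letters were found in 9 of 15 replication promoters, 1 of 12 mitotic promoters and 3.89% of all. A CCAAT box was found in 12 of 15 replication, 11 of 12 mitotic and 37.4% of all promoters. The 7 genes of G1/S control had 6 promoters in the table, with E2F letters in 2, a CHR match in 2 and a CCAAT box in 4. Some genes have 2 promoters in the table. Counted by gene, 31 of the 40 genes had an entry, and Gins1, Gins2, Mcm4, Pole, Ccne2, E2f4, Aurkb, Ccna2 and Tpx2 had none. Called and uncalled genes both carried the letters: Mcm5 and Mcm7, which were not called, held E2F matches, and Rrm2 and Cdc6, which were, held none.

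Accessibility at these genes was lower at 18 months. Of the 37 peaks, 27 fell and 0 rose at an adjusted p under 0.05 (quasi-likelihood test of edgeR, sex in the model, Benjamini-Hochberg adjustment over all 75164 tested peaks). None rose at an unadjusted p under 0.05, nor with DESeq2, which called 26 lower, all but Mcm3 of the 27, against 26.8% of all gene-end peaks. By class, 11 of 16 replication genes, 5 of 7 genes of G1/S control and 11 of 14 mitotic genes fell. With peak centres held within 500 bp of a gene end, 4 of the 7 G1/S genes had a peak and 2 of them fell, against 25% of all genes' peaks in that window. The background was itself shifted down: 25.9% of gene-end peaks chosen by the same rule over all protein-coding genes were called lower and 3.77% higher, against 11.6% lower and 9.43% higher over all tested peaks. These genes had strong peaks, 36 of 37 in the highest quartile of level, and among all gene-end peaks of that quartile 34.1% were lower. The median log2 fold change was -0.31 for replication genes, -0.44 for G1/S control and -0.36 for mitotic genes, against -0.14 over all gene-end peaks, and all 37 values were below 0.

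Part of the shift depended on how the libraries were scaled. With offsets smoothed on peak level, 5, 5 and 5 genes of the 3 classes were called lower, against 15.1% of all gene-end peaks, and with offsets smoothed on peak width 5, 4 and 5, against 14.5%. With total counts the numbers were 8, 4 and 9, against 20.2%. With total counts, level offsets, width offsets and DESeq2 0 rose, and 12 of the 37 were called lower under all 4, against 12.3% of all gene-end peaks: Tyms, Prim1, Rrm2, Gins1, Ccne2, E2f4, E2f1, Ccne1, Ccnb2, Cdk1, Ccnb1 and Plk1. Age could not be told apart from sequencing run either, since the 18-month libraries came from 2 runs, the 3-month libraries from 4 others and 0 runs held both ages. The labels do not say that the samples were separate mice beyond their numbers, so p-values measure the spread between these samples.

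**Figure D1:**
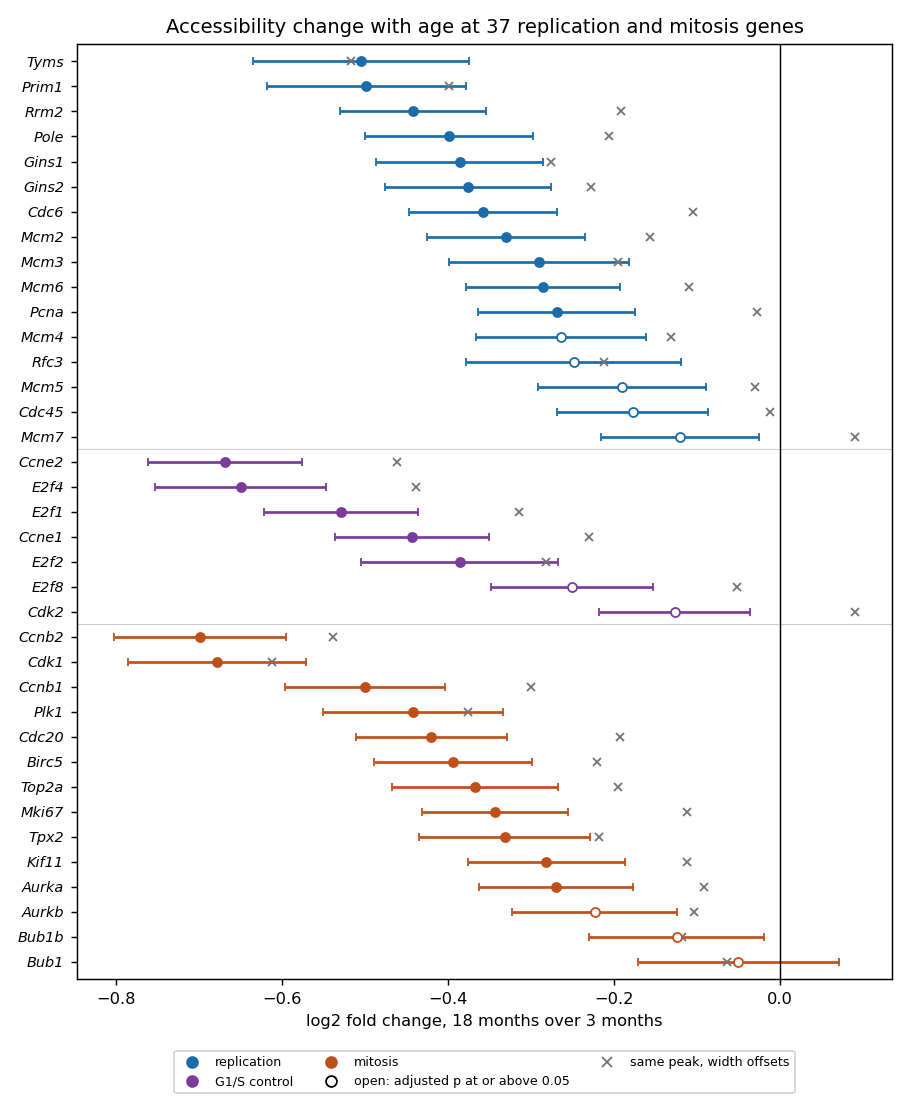
Log2 fold change of accessibility, 18 months over 3 months, at the gene-end peak of each of 37 genes, grouped by class. Circles are the fitted values with 1 standard error, filled where the adjusted p was under 0.05, and crosses are the same peaks fitted with width offsets. All 37 circles lie left of 0, from -0.70 at Ccnb2 to -0.05 at Bub1.

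Cell type markers moved between the same libraries. Their counts stand beside 25.9% of all gene-end peaks called lower and 3.77% called higher. All 13 of 13 erythroid markers with a gene-end peak (of 20 listed) were lower at 18 months, with a median log2 fold change of -0.95. Their summed level ran from 429 to 548 CPM (read counts scaled to library size with TMM factors) at 3 months and from 232 to 292 CPM at 18 months. Neutrophil markers were higher at 10 of 19 (median 0.32), with a summed level from 301 to 495 CPM at 3 months and from 428 to 511 CPM at 18 months. None of the 11 B cell markers with a peak was called. The protocol in the labels describes sorting of CD8 T cells, whereas the sample labels name bone marrow. Cd3e, Cd4, Cd8a and Cd8b1 had no gene-end peak, and of the 6 T cell markers with a peak 2 were higher at 18 months, Cd3d and Cd28. Of 5 stem and progenitor markers 1 was lower (20%), which is not above the share of all gene-end peaks. The part of these shifts in the results below was not tested, and in whole marrow fewer cells of a type and less open chromatin per cell cannot be told apart.

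**Figure D2:**
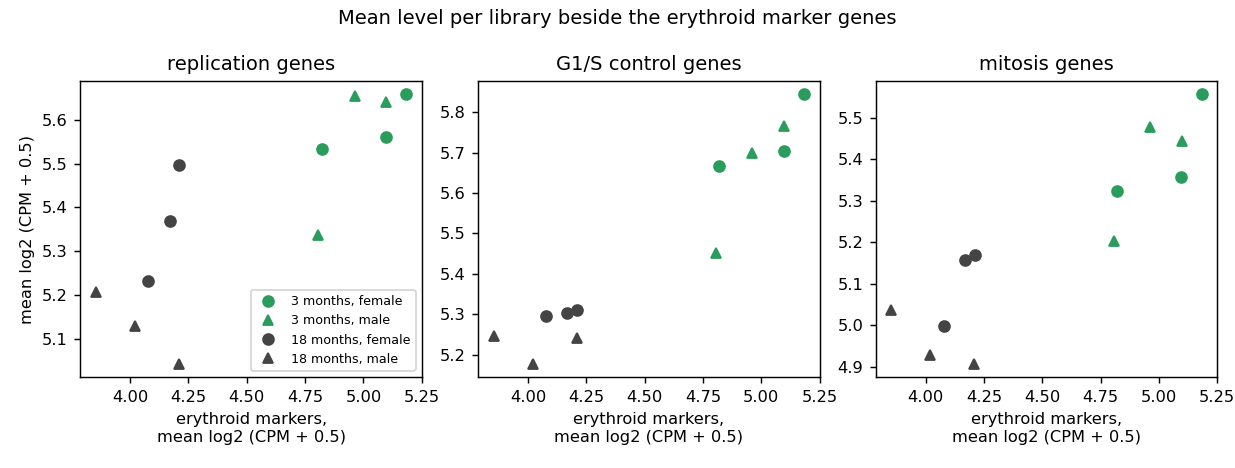
Mean log2 (CPM + 0.5) over the genes of each class (vertical) against that of the 13 erythroid markers (horizontal), 1 point per library, green for 3 months and dark grey for 18 months, circles for females and triangles for males. The erythroid level separates the ages, and so does that of G1/S control, from 5.18 to 5.31 at 18 months and from 5.45 to 5.84 at 3 months, while the replication level overlaps between the ages.

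The mean level of the mitotic genes ran from 4.91 to 5.17 at 18 months and from 5.20 to 5.56 at 3 months, with no overlap. That of the replication genes ran from 5.04 to 5.50 and from 5.34 to 5.66, and overlapped. In all 3 classes the lowest library of 3 months was male BM-252 (libraries are named by the number in their labels), at 5.34 for replication, 5.45 for G1/S control and 5.20 for mitosis, and its erythroid level of 4.81 was also the lowest of that age. Without it, 12 replication genes, 6 of G1/S control and 11 mitotic genes were called lower, against 28.7% of all gene-end peaks in that fit.

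Among the mitotic genes, the peaks of the cyclin B and Cdk1 engine fell most. Ccnb2 encodes a B-type cyclin that pairs with Cdk1, and its peak (chromosome 9, 70420219 to 70422335) spanned the start. It held 30.8, 36.97 and 45.2 CPM (lowest, median and highest of 6 libraries) at 3 months and 20.5, 22.8 and 26.8 CPM at 18 months. The ages did not overlap, as at 8 of the 37 genes and 8.79% of all gene-end peaks that were lower in this way. The log2 fold change was -0.70 with a standard error (SE) of 0.104 (edgeR adjusted p = 1.19e-06). Cdk1, the kinase that starts mitosis, had 25.5, 37.2 and 41.2 CPM at 3 months and 18.9, 22.2 and 26.3 CPM at 18 months (chromosome 10, 69352003 to 69353364). Only the lowest library of 3 months, male BM-252, reached into the 18-month range, and the log2 fold change was -0.68 (SE 0.107, edgeR adjusted p = 4.12e-06). Ccnb1, the cyclin B most needed for division, stood at 39.1, 43.8 and 49.2 CPM at 3 months and 29.2, 29.6 and 35.96 CPM at 18 months, with no overlap (chromosome 13, 100784604 to 100787516; log2 fold change -0.50, SE 0.0963, edgeR adjusted p = 0.00012).

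The kinase and exit factors of mitosis followed with smaller shifts. Plk1, a kinase of spindle assembly and mitotic entry, had 22.9, 26.4 and 31.3 CPM at 3 months and 16.3, 19.5 and 23.1 CPM at 18 months (log2 fold change -0.44, SE 0.109). Cdc20 activates the anaphase-promoting complex, which marks cyclin B and securin for destruction. Its peak went from 59.7, 66.8 and 76.2 CPM at 3 months to 47.3, 50.2 and 54.4 CPM at 18 months, with no overlap (log2 fold change -0.42, SE 0.0906). Birc5, or survivin, of the chromosomal passenger complex, had medians of 67.5 CPM at 3 months and 52.4 CPM at 18 months (log2 fold change -0.39), with ranges that overlapped between 57.5 and 61.2 CPM. The edgeR adjusted p was 0.00244 for Plk1, 0.000553 for Cdc20 and 0.00206 for Birc5. Cdc20 lost its call with width offsets (edgeR adjusted p = 0.0616) and Birc5 with level offsets (edgeR adjusted p = 0.0613).

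Markers used to count dividing cells were among the genes that fell. Mki67 encodes the Ki-67 antigen, which coats mitotic chromosomes. Its peak (chromosome 7, 135713900 to 135718002) held 66.5, 74.0 and 81.7 CPM at 3 months and 52.3, 59.3 and 60.2 CPM at 18 months, so the ages did not overlap (log2 fold change -0.34, SE 0.0878, edgeR adjusted p = 0.00352). Top2a, the topoisomerase that untangles sister chromosomes, had medians of 57.9 and 45.0 CPM at 3 and 18 months (log2 fold change -0.37, edgeR adjusted p = 0.00597). Both were no longer called with level or width offsets, where Mki67 had a log2 fold change of -0.11 with width offsets and Top2a one of -0.20.

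The smallest shifts among called mitotic genes were at spindle proteins. Tpx2, which brings Aurora A to the spindle, had a log2 fold change of -0.33 (edgeR adjusted p = 0.0164). Kif11, the motor that pushes spindle poles apart, had -0.28 (adjusted p = 0.0276), and Aurka, the Aurora A kinase, -0.27 (adjusted p = 0.0302). All 3 overlapped between the ages. In the same order, their calls were lost with level offsets (edgeR adjusted p = 0.12, 0.38 and 0.55) and with width offsets (0.092, 0.37 and 0.44). Aurka also shares its peak with an end of Cstf1, and its call was lost in 6 of 12 fits that left out 1 library. That happened without females BM-35 or BM-42 or males BM-38 or BM-39 of 18 months, or without female BM-245 or male BM-251 of 3 months. Kif11 lost its call without males BM-38 or BM-40 of 18 months or female BM-245 of 3 months, and Tpx2 without female BM-42 or male BM-38 of 18 months.

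The checkpoint kinases Bub1 and Bub1b, which hold back anaphase until chromosomes are attached, were the mitotic genes nearest to 0. Bub1 had 11.8, 13.9 and 16.3 CPM at 3 months and 11.4, 13.2 and 15.8 CPM at 18 months, so the ranges nearly coincide (log2 fold change -0.05, SE 0.121, edgeR adjusted p = 0.816). Bub1b had medians of 24.1 CPM at 3 months and 22.2 CPM at 18 months (log2 fold change -0.12, SE 0.105, edgeR adjusted p = 0.433). Aurkb, the kinase of the passenger complex that contains Birc5, was not called either (log2 fold change -0.22, SE 0.0996, edgeR adjusted p = 0.103).

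**Figure D3:**
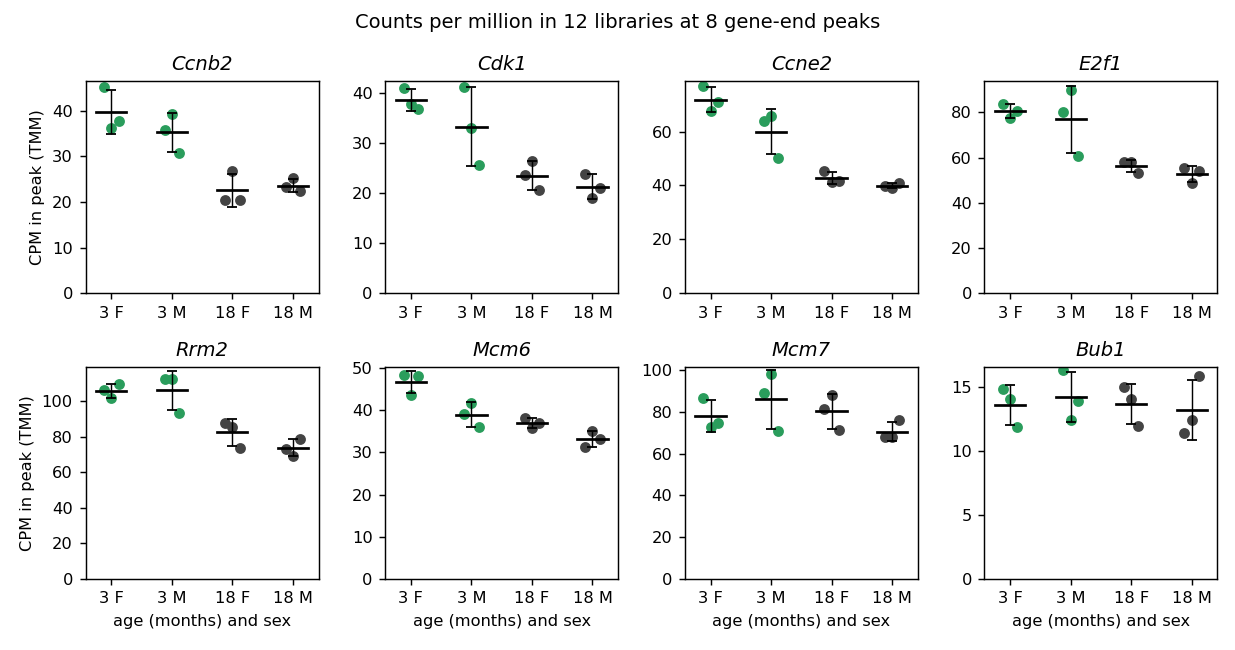
CPM scaled with TMM factors in each library (points, green for 3 months and dark grey for 18 months) at 8 gene-end peaks, with the mean and SD of 3 libraries per sex and age. Ccnb2, Ccne2, E2f1 and Rrm2 show no overlap between the ages, while Mcm7 and Bub1 overlap almost throughout.

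The genes of G1/S control had the lowest median of the 3 classes. Ccne2, one of a pair of E-type cyclins that activate Cdk2, had 50.4, 66.7 and 76.9 CPM at 3 months and 38.9, 41.1 and 45.4 CPM at 18 months (chromosome 4, 11189650 to 11192727). The ages did not overlap, and the log2 fold change was -0.67 (SE 0.0925, edgeR adjusted p = 2.76e-07), the smallest p of the 37. The other E-type cyclin, Ccne1, had 54.6, 74.2 and 76.3 CPM at 3 months and 44.5, 53.7 and 55.6 CPM at 18 months (log2 fold change -0.44, SE 0.0932, edgeR adjusted p = 0.000396). Its ranges overlapped by the single low library of 3 months, male BM-252. Their partner Cdk2 was not called: it had 45.3, 50.7 and 54.6 CPM at 3 months and 43.5, 45.8 and 51.7 CPM at 18 months (log2 fold change -0.13, SE 0.0911, edgeR adjusted p = 0.343), and its sign turned with level and width offsets.

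E2F genes differed in size. E2f1, an activator of S phase genes, had 60.6, 80.4 and 89.7 CPM at 3 months and 48.9, 54.7 and 58.0 CPM at 18 months, with no overlap (chromosome 2, 154568125 to 154571389; log2 fold change -0.53, SE 0.0927, edgeR adjusted p = 2.73e-05). E2f4, a mostly repressive E2F whose loss in mice causes anaemia, had 33.4, 41.8 and 46.8 CPM at 3 months and 21.5, 25.1 and 30.3 CPM at 18 months, again with no overlap (log2 fold change -0.65, SE 0.103, edgeR adjusted p = 4.12e-06). Its peak (chromosome 8, 105303907 to 105307156) also covers an end of Elmo3, so it cannot be assigned to E2f4 alone. E2f8, an atypical E2F that represses, was not called (log2 fold change -0.25, SE 0.0976, edgeR adjusted p = 0.0593), and was called in 4 of the 12 fits that left out 1 library (BM-36 of 18 months or BM-243, BM-244 or BM-252 of 3 months).

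E2f2, an activator E2F with a known role in red cell maturation, had 8 tested peaks besides its gene-end peak, of which 2 were called, both lower. The rule took a 1613 bp peak at the far end of the gene, which does not span a RefSeq start (chromosome 4, 136194609 to 136196221). It held 13.0, 16.4 and 18.8 CPM at 3 months and 11.4, 12.5 and 13.8 CPM at 18 months (log2 fold change -0.39, SE 0.119, edgeR adjusted p = 0.0156). Without female BM-245 of 3 months this call was lost. It was also lost with total counts (edgeR adjusted p = 0.051) and width offsets (log2 fold change -0.28, edgeR adjusted p = 0.10). Inside the gene, 9008 bp from the nearest RefSeq start, a 2797 bp peak (136188392 to 136191188) had 39.6, 45.2 and 56.0 CPM at 3 months and 25.5, 26.9 and 29.6 CPM at 18 months. Its ages did not overlap, and its log2 fold change was -0.76 (SE 0.100, edgeR adjusted p = 8.36e-08). The start itself lay under an 11648 bp peak, outside the rule because of its distant centre, with a log2 fold change of -0.22 (SE 0.0848, edgeR adjusted p = 0.0564) that turned to 0.07 with level offsets and 0.06 with width offsets.

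Among the replication genes the lowest fold changes were at enzymes that supply nucleotides and prime DNA. Rrm2, the regulated subunit of ribonucleotide reductase, had 93.5, 108 and 112 CPM at 3 months and 69.1, 76.3 and 88.0 CPM at 18 months, the only peak of its class with no overlap (chromosome 12, 24705157 to 24711239; log2 fold change -0.44, SE 0.0878, edgeR adjusted p = 0.000188). Tyms, which makes thymidylate, had 10.3, 12.8 and 14.7 CPM at 3 months and 6.96, 9.08 and 10.3 CPM at 18 months (chromosome 5, 30072953 to 30073852; log2 fold change -0.50, SE 0.130, edgeR adjusted p = 0.00368). Prim1, the catalytic subunit of primase, had 15.2, 21.2 and 24.8 CPM at 3 months and 11.6, 13.9 and 17.5 CPM at 18 months (chromosome 10, 128014864 to 128016446; log2 fold change -0.50, SE 0.120, edgeR adjusted p = 0.00191). Tyms was the weakest peak of the class, and at both Tyms and Prim1 the ranges overlapped, at Tyms only at their edges.

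Polymerase, clamp and clamp loader were less even. Pole, the catalytic subunit of the leading-strand polymerase, had medians of 38.8 CPM at 3 months and 31.1 CPM at 18 months (log2 fold change -0.40, SE 0.102, edgeR adjusted p = 0.00335). That peak also covers an end of Pxmp2, and its call was lost with width offsets (edgeR adjusted p = 0.112). Pcna, the sliding clamp, had medians of 103 and 79.3 CPM at 3 and 18 months (log2 fold change -0.27, SE 0.0941, edgeR adjusted p = 0.034). Its ranges overlapped widely, its peak also covers an end of Cds2, and the call was lost in 6 of 12 fits without 1 library (female BM-42 or males BM-38, BM-39 or BM-40 of 18 months, female BM-245 or male BM-251 of 3 months). The Pcna log2 fold change came to -0.025 with level offsets and -0.028 with width offsets (edgeR adjusted p = 0.82 and 0.83). With total counts Pcna was not called either (edgeR adjusted p = 0.065). Rfc3, of the clamp loader, was not called (log2 fold change -0.25, SE 0.129, edgeR adjusted p = 0.169).

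Of the factors that load and start the helicase, Cdc6 had 90.0, 108 and 116 CPM at 3 months and 73.2, 80.9 and 94.9 CPM at 18 months (log2 fold change -0.36, SE 0.0891, edgeR adjusted p = 0.00273). Its peak is 6306 bp wide and also covers an end of Wipf2. The Cdc6 call was lost with level offsets (log2 fold change -0.12, edgeR adjusted p = 0.18) and width offsets (-0.10, edgeR adjusted p = 0.29). Gins1 and Gins2, subunits of the GINS complex, had log2 fold changes of -0.39 and -0.38 (SE 0.101 and 0.0997, edgeR adjusted p = 0.00434 and 0.00482). Gins2 lost its call with level offsets (edgeR adjusted p = 0.116). Cdc45, the partner of the GINS subunits, whose peak also covers an end of Ufd1, was not called (log2 fold change -0.18, SE 0.0908, edgeR adjusted p = 0.162).

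With TMM factors and all libraries, the 6 genes of the MCM ring divided into 3 that were called and 3 that were not. Mcm2 had medians of 40.6 CPM at 3 months and 32.3 CPM at 18 months (log2 fold change -0.33, SE 0.0952, edgeR adjusted p = 0.00955). Mcm6 had 36.02, 42.7 and 48.3 CPM at 3 months and 31.3, 35.5 and 38.1 CPM at 18 months (log2 fold change -0.29, SE 0.0927, edgeR adjusted p = 0.0217), and lost its call without female BM-245 of 3 months. Mcm3 passed narrowly (log2 fold change -0.29, SE 0.109, edgeR adjusted p = 0.0488), was not called by DESeq2 (adjusted p = 0.0572) and was called in 4 of the 12 fits without 1 library, losing the call without BM-35, BM-42, BM-38 or BM-39 of 18 months or BM-244, BM-245, BM-251 or BM-253 of 3 months. Mcm4, Mcm5 and Mcm7 had log2 fold changes of -0.26, -0.19 and -0.12 (edgeR adjusted p = 0.058, 0.183 and 0.393), and Mcm4 was called in 4 of the 12 fits (without BM-36 of 18 months or BM-243, BM-252 or BM-253 of 3 months). Mcm7 had 70.7, 80.7 and 98.3 CPM at 3 months and 67.8, 73.6 and 88.1 CPM at 18 months, and changed sign with level and width offsets. The peaks of Mcm4 and Mcm7 also cover ends of Prkdc and Ap4m1. With level offsets the calls at Mcm2, Mcm3 and Mcm6 were lost (edgeR adjusted p = 0.11, 0.20 and 0.30). They were lost with width offsets too (edgeR adjusted p = 0.19, 0.19 and 0.38). Mcm3 and Mcm6 also lost theirs with total counts (edgeR adjusted p = 0.10 and 0.056). Whether the 3 called subunits differ from the other 3 was not tested.

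Per kilobase of peak, the level averaged over the 12 libraries was highest at Gins2, with 35.9 CPM, and Mcm4, with 34.0 CPM, and lowest at E2f2, with 8.92 CPM, and E2f4, with 10.3 CPM. The peaks were wide, with a median of 2309 bp (882 to 6306 bp) against 706 bp over the table. Called peaks had a median width of 2340 bp and the others 1948 bp.

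The 3 genes without a gene-end peak had peaks with centres farther from their ends. Cdt1, which loads the helicase with Cdc6, lay almost whole within a peak of 6576 bp (chromosome 8, 122566458 to 122573033), with 95.4, 104 and 116 CPM at 3 months and 80.7, 90.0 and 96.4 CPM at 18 months (log2 fold change -0.24, SE 0.0852, edgeR adjusted p = 0.0401). This Cdt1 call was lost and its sign turned with level offsets (0.0031, edgeR adjusted p = 0.983) and width offsets (0.015, edgeR adjusted p = 0.912). Rrm1, the large subunit of ribonucleotide reductase, had 1 end under a 3914 bp peak with a log2 fold change of -0.23 (SE 0.0907, edgeR adjusted p = 0.0600), which came to -0.035 with level offsets and -0.0084 with width offsets. Ccna2, the cyclin of S phase and G2, had a 1332 bp peak with its centre 1166 bp from the gene end, with 35.9, 46.2 and 47.9 CPM at 3 months and 26.2, 32.5 and 38.1 CPM at 18 months (log2 fold change -0.43, SE 0.0993, edgeR adjusted p = 0.0012).

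Besides the gene-end peaks, 86 peaks had centres inside 31 of the 40 genes or within 1 kb of them. Of these, 24 in 15 genes fell and 1 rose, and 20 of the 24 had their centre inside the gene. The 86 include the peaks described above for Cdt1, Rrm1 and Ccna2, and those of Cdt1 and Ccna2 are among the 24. Over all tested peaks 11.6% fell. After the E2f2 peak described above, the smallest adjusted p-values were at Cdc6 and again at E2f2. The Cdc6 peak, 3504 bp from the start (chromosome 11, 98910409 to 98912902), held 28.6, 33.6 and 41.4 CPM at 3 months and 19.9, 20.7 and 26.8 CPM at 18 months, with no overlap (log2 fold change -0.63, SE 0.103, edgeR adjusted p = 7.33e-06). Its shift may be set beside -0.36 at the gene-end peak, a difference that was not tested. At the other E2f2 peak (chromosome 4, 136192835 to 136194478) the log2 fold change was -0.66 (SE 0.125, edgeR adjusted p = 8.29e-05).

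Mki67 and Top2a each had 3 lower second peaks among these 24. The 1 peak that rose lay inside Cdc45, 2872 bp from the start (chromosome 16, 18808498 to 18809702). It held 12.0, 14.97 and 16.7 CPM at 3 months and 17.04, 18.9 and 20.8 CPM at 18 months, with no overlap (log2 fold change 0.37, SE 0.113, edgeR adjusted p = 0.0139). With total counts 13 second peaks were called lower, against 8.82% of all tested peaks, and without female BM-245 of 3 months 14, against 9.6%. Level offsets gave 23, against 10.3%, and width offsets 21, against 9.45%.

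Within each sex the same direction held in most genes. In males, 23 of 37 peaks were called, all lower, against 24.4% lower of all gene-end peaks, and in females 10 were, all lower, against 9.21%. The median log2 fold change was -0.44 in males and -0.28 in females, against -0.23 and -0.06 over all gene-end peaks. The value was lower in males at 28 of the 37 and at 73.8% of all gene-end peaks. The replication genes were called at 10 of 16 in males and 2 of 16 in females, while G1/S control gave 4 of 7 in each sex. A difference in age effect between the sexes (the interaction term) passed at 0 of 37 genes in edgeR and 0 in DESeq2, with a smallest edgeR adjusted p of 0.348 and 2 at an unadjusted p under 0.05, against 15.2% of gene-end peaks. After adjustment it passed at 0.00532% of all tested peaks and 0% of gene-end peaks. At 18 months each sex had its own run, so sex and run cannot be told apart there. Marker levels differed by sex in part. The summed level of the B cell markers was 114 to 117 CPM in females and 82.8 to 87.8 CPM in males at 18 months, with no overlap, and 97.2 to 110 CPM in females and 97.5 to 120 CPM in males at 3 months. That of the erythroid markers was 269 to 292 CPM in females and 232 to 279 CPM in males at 18 months, and 445 to 548 CPM and 429 to 531 CPM at 3 months, overlapping at both ages. That of the neutrophil markers was 428 to 469 CPM in females and 460 to 511 CPM in males at 18 months, and 301 to 338 CPM and 355 to 495 CPM at 3 months, with no overlap at the younger age. The part of these markers in the values by sex was not tested.

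The counts within a sex moved with single libraries, and so did the share of all gene-end peaks called lower. Without male BM-252 of 3 months 30 genes were lower in males, against 38.1% of gene-end peaks. Without male BM-251 of 3 months 9 were, against 13.1%, without male BM-38 of 18 months 11, against 13.9%, and without male BM-39 of 18 months 13, against 12.6%. With level and width offsets 5 and 4 were lower in males, against 6.64% and 9.49%. In females 6 were lower without female BM-245 of 3 months, against 3.97%, and 5 with width offsets, against 5.91%. Without male BM-252, the interaction was called at 2 of the 37 genes, close to the 5.81% of all gene-end peaks called in that fit. Both were of the MCM ring. At Mcm5 the male log2 fold change less the female one was -0.66 (SE 0.163, edgeR adjusted p = 0.0184), and at Mcm4 it was -0.58 (SE 0.166, edgeR adjusted p = 0.0405). In that fit 1621 of all tested peaks were called for the interaction.

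**Figure D4:**
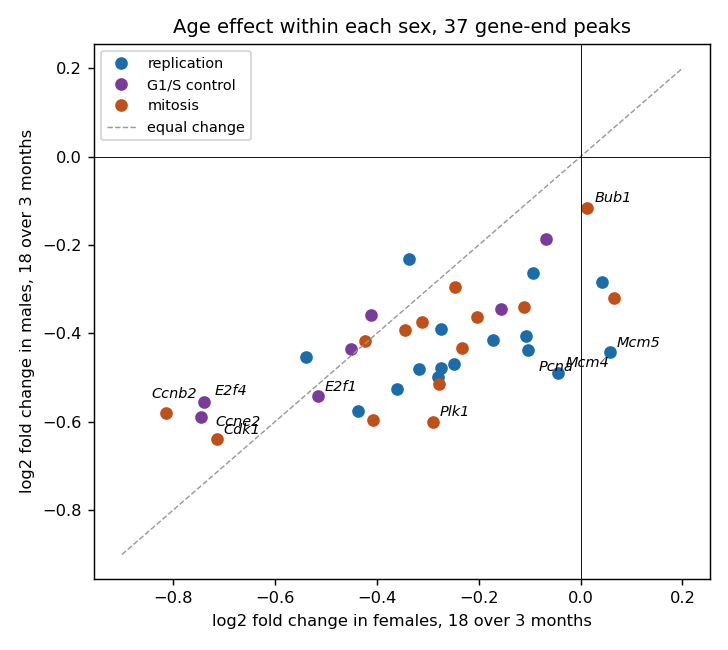
Log2 fold change with age in females (horizontal) and males (vertical) at the 37 gene-end peaks, coloured by class, with the dashed line marking equal change. All 37 lie below 0 in males and 33 in females, and 28 lie below the dashed line, against 76.2%, 59.6% and 73.8% of all gene-end peaks.

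The sex effect over both ages passed at 0 of 37 genes in edgeR and DESeq2, against 0.162% of all tested peaks and 0.203% of gene-end peaks in edgeR. At an unadjusted p under 0.05 there were 4, against 11.6% of gene-end peaks. At 3 months both sexes were sequenced together in runs 29 and 31, with 1 library of each sex per run. A fit of these 4 libraries with run as a term, which leaves 1 residual degree of freedom and was added after seeing the data, called 0 of 37 genes for sex in edgeR, against 0.0599% of all tested peaks. At an unadjusted p under 0.05 there were 0, against 3.53% of gene-end peaks, and with so few libraries this fit has little power. The median log2 difference, males minus females, was -0.05 with the run term and -0.05 without it. Leaving out male BM-253 of 3 months gave 1 call, Rfc3, lower in males (log2 fold change -0.44, SE 0.120, edgeR adjusted p = 0.0448). That fit called 567 of all tested peaks for sex, against 122 with all libraries, and 2.38% of gene-end peaks, to which 1 of 37 is close.

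The further genes of these pathways are read against the same background, 25.9% of all gene-end peaks lower and 3.77% higher. Of 47 further replication genes 40 had a gene-end peak, and 24 of them fell and 0 rose (median log2 fold change -0.29). Without male BM-39 of 18 months 14 fell, against 20.7% of all gene-end peaks. The smallest adjusted p-values were at Cdc7, the kinase that fires origins (log2 fold change -0.48, SE 0.0962), Tipin and Clspn of the fork-protection machinery (-0.48 and -0.50) and Gmnn, the inhibitor of Cdt1 (-0.43). Of 69 further mitotic genes 66 had a peak, of which 37 fell and 1 rose (median -0.27). Nusap1, a spindle-associated protein, went from 96.9 ± 8.15 to 66.2 ± 6.50 CPM (SD, n = 6 each) and a log2 fold change of -0.55. Ckap2, Kif14 and Cdc25b, the phosphatase that activates Cdk1, had log2 fold changes of -0.61, -0.51 and -0.48. The 1 that rose was Cep55, which acts at the final cut between daughter cells (log2 fold change 0.32, SE 0.108, edgeR adjusted p = 0.0286), named after its values were seen.

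Of 22 further genes of G1 and S phase control, 19 had a peak, and 10 fell and 0 rose (median -0.29). These were led by Lin9, a subunit of the MuvB complex (log2 fold change -0.77, SE 0.0936, edgeR adjusted p = 1.62e-08), which went from 52.7 ± 5.98 CPM in young mice to 30.9 ± 2.36 CPM in old mice (SD, n = 6 each). Rb1, the retinoblastoma protein that restrains E2F, followed at -0.63, Tfdp2, a dimer partner of E2F, at -0.59 and E2f7, an atypical repressor, at -0.41. With level offsets 11 further replication, 6 further G1/S and 18 further mitotic genes were lower, against 15.1% of all gene-end peaks.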

How the data were processed

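The deposited table holds whole-number counts of reads per consensus peak, made by the authors (columns for 12 libraries, 75281 peaks, no value under 1). Per the submitters' processing notes the tools were Trimmomatic, BWA, MACS2, DiffBind and edgeR with build mm10. Versions and parameters are not given in the sources used here. Groups came from the age and sex labels. The counts were fitted in R 4.3.3 with edgeR 4.0.16 (TMM factors, quasi-likelihood, age and sex as terms), over the 75164 peaks that exceeded a CPM of 1 in 2 or more libraries. Within-sex effects and the interaction came from a 4-group model. Log2 fold changes are fitted values, and 1 peak with a rounded start was left out of gene assignment. On simulated counts for the age effect over 75164 peaks, 100 peaks drawn at random were changed for each size. Of these, 34% of peaks changed by a log2 of 0.5 and 91% of those changed by 1 were recovered. In the real data 21% of tested peaks were called, and 36 of the 37 genes had peaks in the highest quartile of level. The simulated shares therefore do not give the power at these genes. Alternatives were total-count scaling, DESeq2 1.42.0, offsets smoothed on level or width, other filters and windows, each sex alone, each library left out and, added after seeing the data, the peak spanning a gene end and run as a term for sex at 3 months. The members and lists were chosen with earlier results of these data known. All genes of the set are named. Further pathway genes are the 4 with the smallest adjusted p per list, and second peaks the 3 per direction. Promoters are RefSeq's (GRCm38.p6, 250 bases before to 50 after a start).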

Additional observations from a re-analysis of the deposited data

Results flagged for a closer look

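Of 74 groups of 6 libraries (37 peaks at each age), 4 held a library far from the other 5, and chance gives about 1 in 20. At Ccne1, male BM-38 of 18 months stood at 44.5 CPM, with the next at 52.6 CPM, and male BM-252 of 3 months at 54.6 CPM, with the next at 72.3 CPM. At Mki67, male BM-38 of 18 months stood at 52.3 CPM, with the next at 57.8 CPM. At Gins1, male BM-252 of 3 months stood at 27.5 CPM, with the next at 32.6 CPM. All 4 are low values, and they come from 2 libraries. The calls at Ccne1, Mki67 and Gins1 held in all 12 fits without 1 library.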

How the results depend on the processing

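With level offsets 5 replication and 5 mitotic genes were called lower (medians -0.16 and -0.17), and the median of G1/S control was -0.30. Males gave 5 calls, and further replication, G1/S and mitotic genes 11, 6 and 18. With width offsets the same values were 5 and 5 (medians -0.17 and -0.19), -0.28, 4 in males, 5 in females, and 9, 6 and 15. Second peaks numbered 13 with total counts, and G1/S control 2 with a window of 500 bp, where 4 of its 7 genes had a peak. The cause of these moves was not tested. Values that changed sign were Cdk2 (0.0674 level, 0.0903 width), Mcm7 (0.11 level, 0.0909 width, 0.0420 females only), Mcm5 (0.0117 level, 0.0570 females only), Cdc45 (0.0279 level), Bub1b (0.0654 females only) and Bub1 (0.0248 total counts, 0.0136 females only, and -0.11 to 0.0011 without 1 library). None of these had been called. The peak over Cdt1, outside the gene-end rule and called lower, also changed sign (0.0031 level, 0.015 width), as did the uncalled peak over the E2f2 start (0.07 level, 0.06 width). Leaving out 1 library gave 8 to 12 replication, 4 to 6 G1/S and 8 to 11 mitotic genes, with medians of -0.36 to -0.28, -0.51 to -0.40 and -0.39 to -0.32. It gave 6 to 14 calls in females, 9 to 30 in males, 0 to 2 for the interaction, 0 to 1 for sex and 0 to 0 higher. Second peaks ranged from 14 to 32, and further genes from 14 to 27, 8 to 11 and 29 to 45. No paired analysis was possible because the groups share no replicate number, apart from the run-matched comparison of the sexes at 3 months given above. Counts of 70 to 1327 per peak and library gave standard errors of 0.0878 to 0.130.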
